A study of Mus musculus with 504 samples.

Results

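This comparison was made on EpCAM-negative cells sorted from tumours of the Cdh2-CreERT2 mouse line. It set 10 libraries of mCherry-positive cells (gate P05) against 16 libraries of GFP-positive cells (gate P15). The 26 libraries were those of the line that had passed the submitters' quality control in these 2 gates, of 335 passing libraries among 487 libraries with cells and 504 wells in all. Each library was made by Smart-seq2, a full-length method without molecular identifiers, from a pool of 5 sorted cells. Every mouse carried the alleles Cdh2-CreERT2, MMTV-Flpo, RC::FrePe and MMTV-PyMT, and was given 2 mg of tamoxifen 2 times per week, starting at week 9, with tumours collected at week 13 to 14. The MMTV promoter, which is active mainly in mammary epithelium, drives both the PyMT oncogene and the Flp recombinase that turns on mCherry, so reporter-positive cells descend from cells in which that promoter was active. The Cdh2 promoter drives the tamoxifen-dependent Cre that replaces mCherry by GFP, so GFP records past activity of the Cdh2 promoter while tamoxifen was present.

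All 10 P05 pools came from 1 animal, Cdh1725. The 16 P15 pools came from 3 animals, with 7 pools from Cdh1624, 3 from Cdh1654 and 6 from Cdh1739. Animal Cdh1725 gave no passing P15 pool, so the gate and the animal cannot be told apart. Pools from the same animal are no independent replicates, and levels are therefore described pool by pool, in CPM, the counts per 1000000 counts of the library. For reference, animal Cdh1725 also gave 16 passing pools of mCherry-high, EpCAM-high cells (gate P18). Transcripts of the reporters, of Cre and of Flp were not analysed here, so the gates themselves were not checked from reporter RNA.

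Epithelial-mesenchymal transition (EMT) is the loss of epithelial adhesion, held by E-cadherin (Cdh1), EpCAM and keratins, with gain of vimentin, N-cadherin (Cdh2) and matrix genes. Transcription factors of the ZEB, SNAI and TWIST families bind E-box sequences and repress epithelial genes in that change. In PyMT mammary tumours most tumour cells keep an epithelial state, and the EpCAM-negative fraction of a tumour also holds fibroblasts, endothelial cells and leukocytes.

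The P05 libraries held between 3823457 and 14282058 counts (median 8629759.5) and the P15 libraries between 453079 and 27849014 (median 6892204.5). A P05 pool had counts on 5808 to 12123 genes (median 8738.5), against 6997 to 16791 (median 11619.5) for a P15 pool. Mitochondrially encoded genes took 0.846% to 3.96% of a P05 library and 0.682% to 1.30% of a P15 library. Genes at ribosomal RNA loci (CT010467.1, Gm42418 and AY036118) took 27.4% to 76.8% of a P05 library (median 62.0%) and 11.6% to 55.6% of a P15 library (median 40.2%). The share was above the P15 median in 9 of 10 P05 pools, whereas pool R5, at 27.4%, was below 15 of 16 P15 pools. A larger share lowers the CPM of every other gene in a library, so counts of pools that change are also given with these 3 genes left out of the totals. A gene without a count in the P05 pools together could hold up to 0.0338 CPM, and in the P15 pools together up to 0.0207 CPM (3 counts of the summed totals, for counting error only).

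The pools differed in which cell type markers they held, so the marker check comes before the gene results. A marker was counted as present in a pool at 10 CPM or more. Of the 25029 genes tested below, 3071 to 5910 reached that level in a P05 pool (median 3780). In a P15 pool 3987 to 8561 did (median 6575). A smaller share of P05 pools with a gene is to be read beside this difference over all genes. In pool R5 of P05 all 4 pan-leukocyte markers (Ptprc, Laptm5, Cd52 and Coro1a) and 6 of 6 macrophage markers were present, and in pool R9 of P05 all 4 pan-leukocyte and 5 of 6 macrophage markers. In pool R8 of P05 5 of 6 fibroblast markers were present (Dcn, Lum, Col1a1, Dpt and Islr) and in pool R10 of P05 4 of 6 (Pdgfra, Dcn, Lum and Col1a1). The other 6 P05 pools held at most Islr of the fibroblast markers, and no leukocyte or macrophage marker. In R8 the endothelial marker Kdr was also present, at 28.0 CPM. In P15 macrophage markers (Csf1r or Cd68) were present in 6 of 16 pools, with at most 2 of 6 in a pool and a summed level of at most 44.1 CPM, against 11590 CPM in R5. At least 1 fibroblast marker was present in 13 of 16 P15 pools, mostly Islr, with at most 3 of 6 in a pool and a sum of at most 244 CPM, against 9274 CPM in R8. The only pan-leukocyte marker present in P15 was Coro1a in 1 pool, and Ptprc, the gene of the leukocyte antigen CD45, had no count in any of the 16 pools. The defining markers of T and NK cells, B cells, mast cells, adipocytes and Schwann cells were below 10 CPM in all 26 pools. Results on leukocyte and matrix genes are given with and without these 4 P05 pools, a step added after the pool values were seen.

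**Figure D1:**
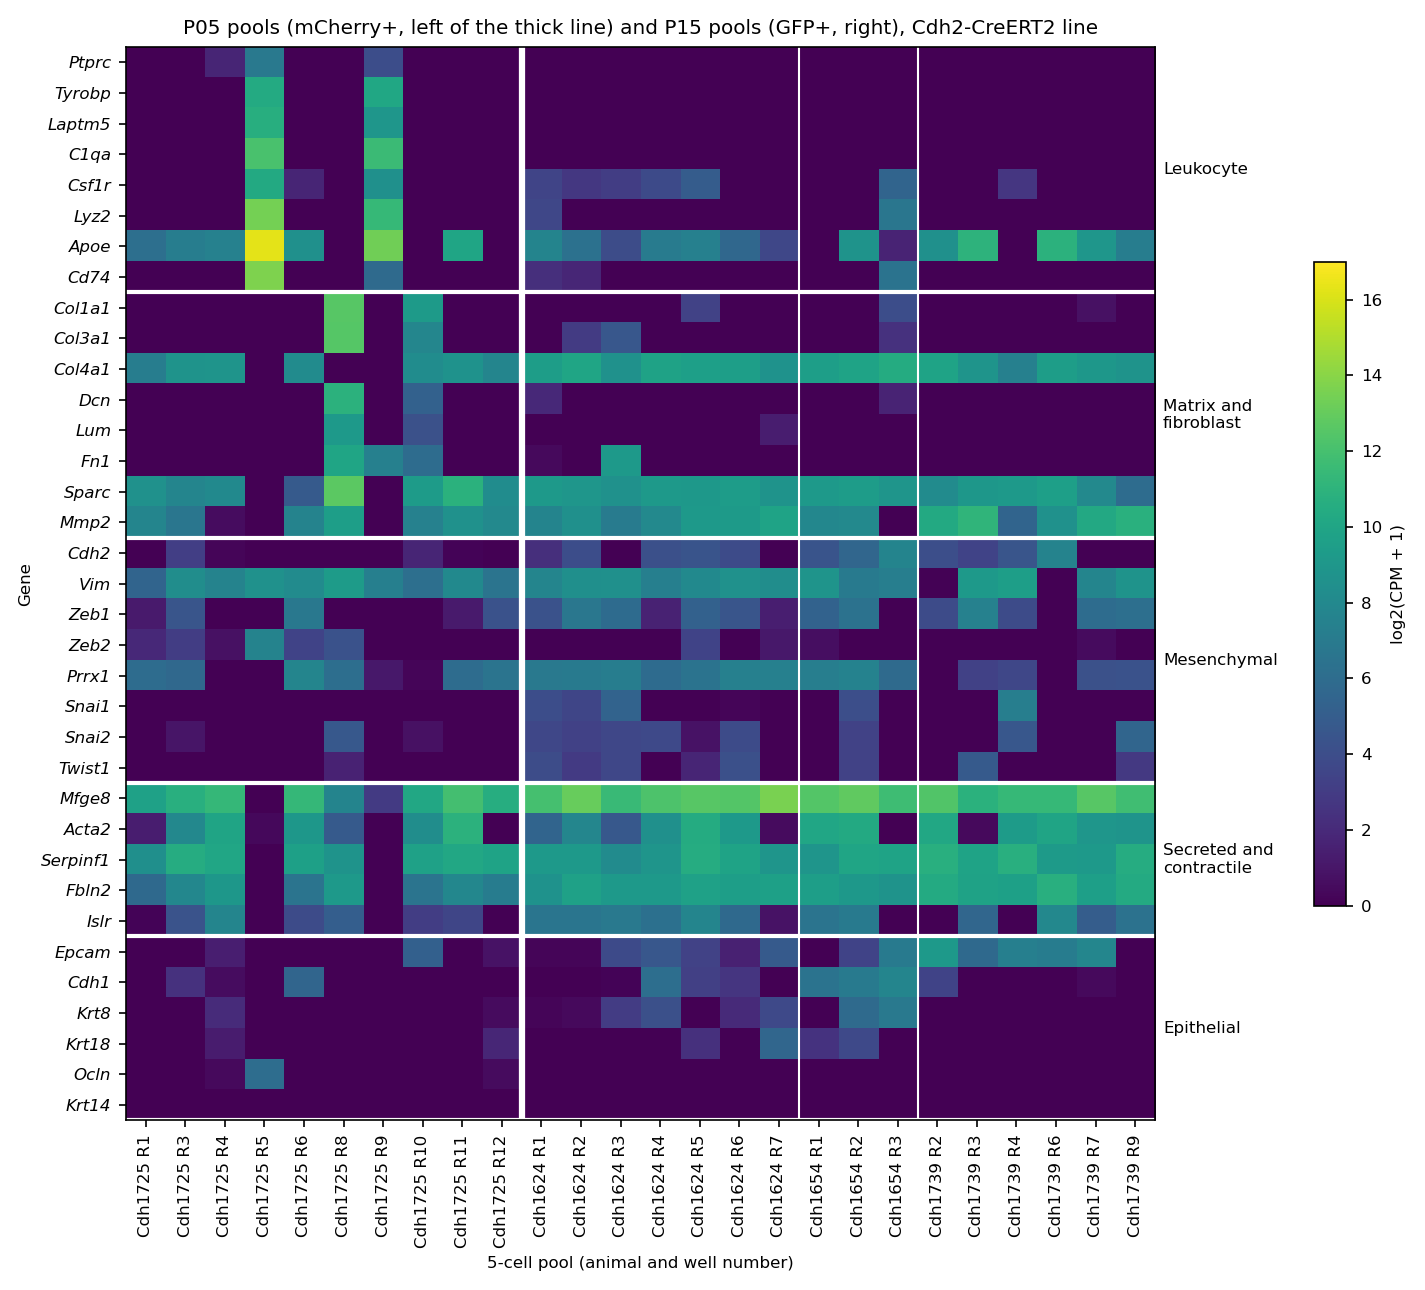
Heatmap of log2(CPM + 1) for chosen genes (rows, grouped by role) in the 10 P05 pools on the left and the 16 P15 pools on the right (columns). Leukocyte genes stand out in P05 pools R5 and R9 and collagen genes in P05 pools R8 and R10, while Serpinf1 and Mfge8 are absent or low in R5 and R9 and high in the remaining 8 P05 pools and all P15 pools.

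Cdh2, whose promoter drives the Cre of this line, encodes N-cadherin (ENSMUSG00000024304, chromosome 18, 16588877 to 16809246, GRCm38). The P05 pools held 0, 0 and 8.01 CPM (lowest, median and highest), against 0, 15.3 and 199 CPM in the P15 pools. Cdh2 reached 10 CPM in 0 of 10 P05 pools and in 10 of 16 P15 pools, which were spread over all 3 animals. The groups overlapped, since 4 P15 pools had no Cdh2 count and P05 pool R3 held 8.01 CPM. With the 3 ribosomal-locus genes left out of the totals, 1 of 10 P05 pools and 11 of 16 P15 pools reached 10 CPM. On counts summed per animal, the log2 fold change of P05 over P15 was -3.41 (SE 2.77), with an adjusted p of 1.00 by edgeR's quasi-likelihood test over all genes tested, and it was -5.19 without pool R3. In the EpCAM-high P18 pools of animal Cdh1725 Cdh2 was at most 4.36 CPM.

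Tnc, the tenascin C gene that drives Cre in the other line of the series, was below 10 CPM in all 26 pools, with its highest value, 9.66 CPM, in P05 pool R6. In pooled cells, fewer cells with a transcript and less of it per cell cannot be told apart, and this holds for every level given here.

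Vim, which encodes the mesenchymal intermediate filament vimentin, was present on both sides. The P05 pools held 44.3, 228.5 and 655 CPM (lowest, median and highest), against 0, 294.2 and 738 CPM in the P15 pools. All 10 P05 pools and 14 of 16 P15 pools reached 10 CPM, and the ranges overlapped almost throughout. The P18 pools of animal Cdh1725 had a median of 5.83 CPM.

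Zeb1, a repressor of epithelial genes, held 0, 0.694 and 113 CPM in the P05 pools, against 0, 29.7 and 173 CPM in the P15 pools. It reached 10 CPM in 3 of 10 P05 pools (R3, R6 and R12) and in 12 of 16 P15 pools. Its relative Zeb2 was found the other way, at 198 CPM in the leukocyte-marker pool R5 and 18.5 CPM in the collagen pool R8 of P05, and in 0 of 16 P15 pools at 10 CPM. Zeb2 is also known from macrophages and fibroblasts, and without R5 the gene no longer stood 4-fold above the P15 animals.

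Snai1, the gene of the SNAIL repressor, had no count in any P05 pool. It reached 10 CPM in 5 of 16 P15 pools, at 10.9 to 153 CPM, from all 3 P15 animals. Taken over all pools of a gate, on totals without TMM scaling, Snai1 was at least 609-fold lower in P05 than in P15. The floor of 3 counts was set over the P05 pools together. Pool R4 of Cdh1739 held most of the P15 counts, and without it the bound was 118-fold. Snai2 reached 10 CPM in 1 of 10 P05 pools and 6 of 16 P15 pools, and Twist1 in 0 of 10 and 4 of 16. The only P05 pool with 10 CPM of Snai2 was R8. With the 3 ribosomal-locus genes left out, Snai2 reached it in 1 of 10 P05 and 8 of 16 P15 pools, Twist1 in 0 and 6, and Zeb2 in 5 and 1. Prrx1, a homeobox gene of mesenchyme, held 0, 58.6 and 215 CPM in the P05 pools, against 0, 74.3 and 187 CPM in the P15 pools, where the pools of Cdh1739 were lowest at 0 to 18.8 CPM.

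Of 13 EMT transcription factors tested, Zeb2 and Twist2 stood 4-fold above the highest P15 animal and Snai1 4-fold below the lowest, and the list's median log2 fold change was 0.08. Twist2 had counts only in pool R8.

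**Figure D2:**
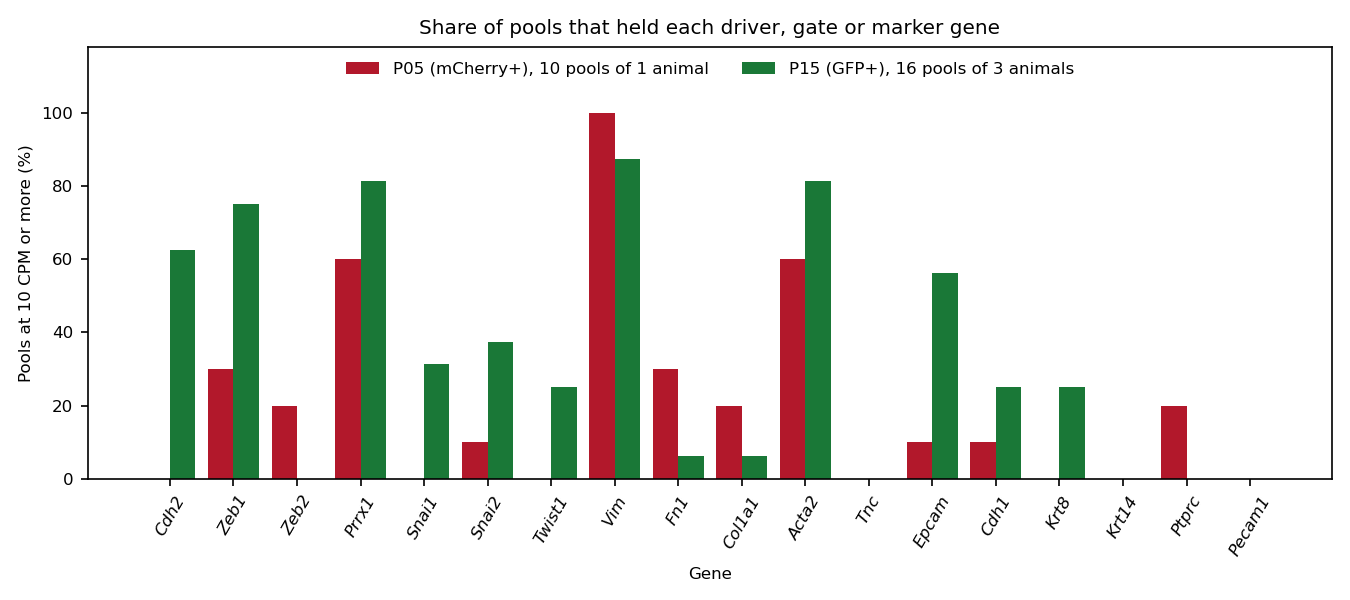
Share of pools (percent) that held each driver, gate or marker gene at 10 CPM or more, in P05 (10 pools) and P15 (16 pools). Cdh2, Zeb1 and Epcam were present in a larger share of P15 pools, Ptprc and Zeb2 in P05 pools only, and Vim in nearly all pools of both gates. Over all genes tested, the median pool held 3780 genes at that level in P05 and 6575 in P15.

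Genes of epithelial adhesion were low in both gates beside the EpCAM-high cells of animal Cdh1725. That animal gave no passing P15 pool, so for P15 the comparison is between animals. Epcam (ENSMUSG00000045394), the gene of the antigen that both gates select against, held 0, 0 and 35.6 CPM in the P05 pools, against 0, 18.2 and 573 CPM in the P15 pools. In P05 1 pool (R10) reached 10 CPM and in P15 9 pools, and 5 of those 9 came from Cdh1739. The log2 fold change of P05 over P15 was -3.02 (SE 2.13, edgeR adjusted p = 0.994), but -0.10 without P15 animal Cdh1739 and -7.54 without P05 pool R10. In the P18 pools of animal Cdh1725 Epcam held 2197, 3793 and 5560 CPM, above every pool of both EpCAM-negative gates.

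Krt8, the gene of a keratin of simple epithelia, held 0, 0 and 3.35 CPM in the P05 pools, against 0, 0.0826 and 115 CPM in the P15 pools, and 4 P15 pools reached 10 CPM. Cdh1 held 0, 0 and 46.4 CPM in P05, with only R6 above 10 CPM, against 0, 0.237 and 208 CPM in P15, with 4 pools above it. With the 3 ribosomal-locus genes left out, Cdh1 reached 10 CPM in 2 of 10 P05 and 6 of 16 P15 pools, and Krt8 in 1 and 5. Krt14, a basal keratin, had no count in any of the 26 pools. Other basal markers were present: at least 1 of 4 (Krt14, Krt5, Trp63 and Acta2) in 6 of 10 P05 and 14 of 16 P15 pools, mostly Acta2. Trp63 was present in P05 pool R11 only and in P15 pools of all 3 animals, and Krt5 in P15 pool R4 of Cdh1624 only. The 12 basal and myoepithelial genes summed to a median of 3.99 CPM in P05 and 185 CPM in P15. At least 1 of 6 epithelial markers was present in 2 of 10 P05 pools and in 12 of 16 P15 pools. In every such pool of Cdh1739, and in pool R3 of Cdh1624, it was Epcam alone, the gene of the sorting antigen. Over all genes tested, a P05 pool also held fewer genes at 10 CPM (median 3780) than a P15 pool (median 6575).

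The promoters of Epcam and Krt8 are shown as examples of epithelial genes. They were picked by hand among genes with a promoter sequence at hand, not by a ranking. Epcam encodes the antigen used for sorting, so its level is tied to the gates. Each sequence is from RefSeq on GRCm38.p6, read from 250 bases before to 50 bases after the gene's start. Capitals mark the E-box CACCTG or its reverse complement CAGGTG, the sequence that ZEB and SNAI factors are known to bind, searched on both strands. The Epcam window lies at chr17:87635729-87636028 on the plus strand and the Krt8 window at chr15:102004293-102004592 on the minus strand.
Epcam: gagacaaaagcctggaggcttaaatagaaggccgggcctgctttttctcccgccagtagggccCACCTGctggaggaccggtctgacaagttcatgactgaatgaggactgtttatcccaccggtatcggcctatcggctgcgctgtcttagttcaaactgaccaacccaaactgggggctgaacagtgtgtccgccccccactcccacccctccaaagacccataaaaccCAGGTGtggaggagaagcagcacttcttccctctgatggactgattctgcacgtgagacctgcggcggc
Krt8: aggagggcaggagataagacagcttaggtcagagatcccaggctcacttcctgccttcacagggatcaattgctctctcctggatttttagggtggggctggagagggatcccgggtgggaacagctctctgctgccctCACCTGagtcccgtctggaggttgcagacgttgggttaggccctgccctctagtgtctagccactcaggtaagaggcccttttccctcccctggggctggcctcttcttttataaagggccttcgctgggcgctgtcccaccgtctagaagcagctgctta
The Epcam window held 2 such E-boxes, with first bases 187 and 19 bases before the start, and the Krt8 window held 1, at 111 bases before it. The motif was also in 6634 of 32817 promoter windows of the same length (20.2%), so a match describes the sequence and is no evidence of binding.

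Leukocyte genes were highest in P05 pools R5 and R9, while Ptprc and Tyrobp had no count in P15. The 12 pan-leukocyte genes summed to a median of 192 CPM in P05 and 96.4 CPM in P15. Ptprc (chromosome 1, 138062861 to 138175708) held 119 CPM in R5, 15.3 CPM in R9 and 2.34 CPM in R4, with no count in the other 7 P05 pools or in any P15 pool. Over all pools, on totals without TMM scaling, it was at least 304-fold higher in P05 than in P15, and at least 59.6-fold without R5. The floor of 3 counts was set over the P15 pools together. Tyrobp, an adaptor of myeloid receptors, held 1318 CPM in R5 and 1128 CPM in R9 and had no count elsewhere in either gate.

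C1qa, a complement component made by macrophages, held 4530 CPM in R5 and 3018 CPM in R9 and was absent from P15. Apoe, which encodes a lipid carrier abundant in macrophages, held 82680 CPM in R5 and 10120 CPM in R9. In the other P05 pools it was between 0 and 1022 CPM, and in the P15 pools between 0 and 2025 CPM, so outside R5 and R9 the groups overlapped. The log2 fold change of P05 over P15 was 4.53 for Apoe (SE 2.21, edgeR adjusted p = 0.894), 2.27 without R5, 0.18 without R5 and R9, and 5.78 without P15 animal Cdh1739.

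Lyz2, the gene of macrophage lysozyme, whose reads may be shared with its near-identical neighbour Lyz1, held 11400 CPM in R5 and 2625 CPM in R9, none in the other P05 pools, and at most 101.5 CPM in P15. Antigen presentation differed between these pools: Cd74, the MHC class II invariant chain, held 13140 CPM in R5 and 59.1 CPM in R9, and H2-Ab1, an MHC class II chain, held 5411 CPM in R5 and no count in R9. Il1b, an inflammatory cytokine, held 2363 CPM in R5 and was not counted in any other pool of either gate.

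The 22 macrophage and monocyte genes summed to 120500 CPM in R5 and 23470 CPM in R9, to between 0.401 and 1034 CPM in the other P05 pools, and to between 0.563 and 2025 CPM in the P15 pools. The median sum was 161 CPM in both gates, and the median pool held 1 of these genes at 10 CPM in P05 and 2 in P15. Of 21 tested, 20 stood 4-fold above the highest P15 animal, and without R5 and R9 that number was 1 of 13. Both pools were picked by their counts of the leukocyte gene Ptprc, so the number without them says only which pools hold these transcripts. The markers of leukocytes move with these genes, pool by pool, and how many of the 5 cells in a pool carried them was not measured.

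Genes of type I and type III collagen were highest in P05 pools R8 and R10. Col1a1 (chromosome 11, 94936224 to 94953042), the alpha-1 chain of type I collagen, held 6272 CPM in R8 and 620 CPM in R10, with no count in the other 8 P05 pools, against at most 15.4 CPM in the P15 pools. The log2 fold change of P05 over P15 was 10.31 (SE 2.70, edgeR adjusted p = 0.653), and 6.80 without R8. Col3a1, a type III collagen gene, held 5871 CPM in R8 and 221 CPM in R10 against at most 24.1 CPM in P15, with a log2 fold change of 10.64 (SE 3.72, edgeR adjusted p = 0.653) and 5.82 without R8. Dcn, the gene of the collagen-binding proteoglycan decorin, held 1975 CPM in R8, 37.6 CPM in R10 and at most 2.81 CPM in P15.

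Fn1, which encodes fibronectin, held 1017 CPM in R8, 166 CPM in R9 and 63.9 CPM in R10, with no count in the other 7 P05 pools. In P15 it held 570 CPM in 1 pool of Cdh1624 and 0.33 CPM or less in the others. The groups thus overlapped, and the log2 fold change was 4.12 (SE 2.90, edgeR adjusted p = 0.994), and 1.07 without R8. The chemokine gene Ccl2 held 1883 CPM in R8 and no count in any other pool, and Cxcl1 held 1348 CPM in R8 and 36.1 CPM in R10, against 557 CPM in 1 P15 pool.

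The 18 collagen genes summed to 18530 CPM in R8, 2129 CPM in R10, 20.7 CPM in R5, 0.168 CPM in R9 and 369 to 2027 CPM in the other 6 P05 pools, against 745 to 3441 CPM in the P15 pools. The median sum was 902 CPM in P05 and 1920 CPM in P15, the opposite direction to the list's median log2 fold change, and R10 lay within the P15 range. Of these 18, 10 stood 4-fold above the highest P15 animal, and 0 of 18 without R8 and R10. Without those 2 pools the list's median log2 fold change was -0.41 instead of 4.33. Both pools were picked by their Col1a1 counts, and Col1a1 is a member of this list, so the count without them says only which pools hold these transcripts, and the part of fibroblast content was not tested.

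The summed endothelial genes were also highest in R8, where the list of 14 held 641 CPM, 555 of it from Ly6c1, against 0 to 84.3 CPM in the other P05 pools and 0.124 to 163 CPM in P15. Of 9 endothelial genes tested, 4 stood 4-fold above the highest P15 animal (Kdr, Tek, Vwf and Ly6c1), and 1 of 8 without R8 and R10 (Vwf, at 15.9 CPM in R11). Their part in the levels of R8 was not tested. The endothelial marker Pecam1 stayed under 10 CPM in all 26 pools.

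**Figure D3:**
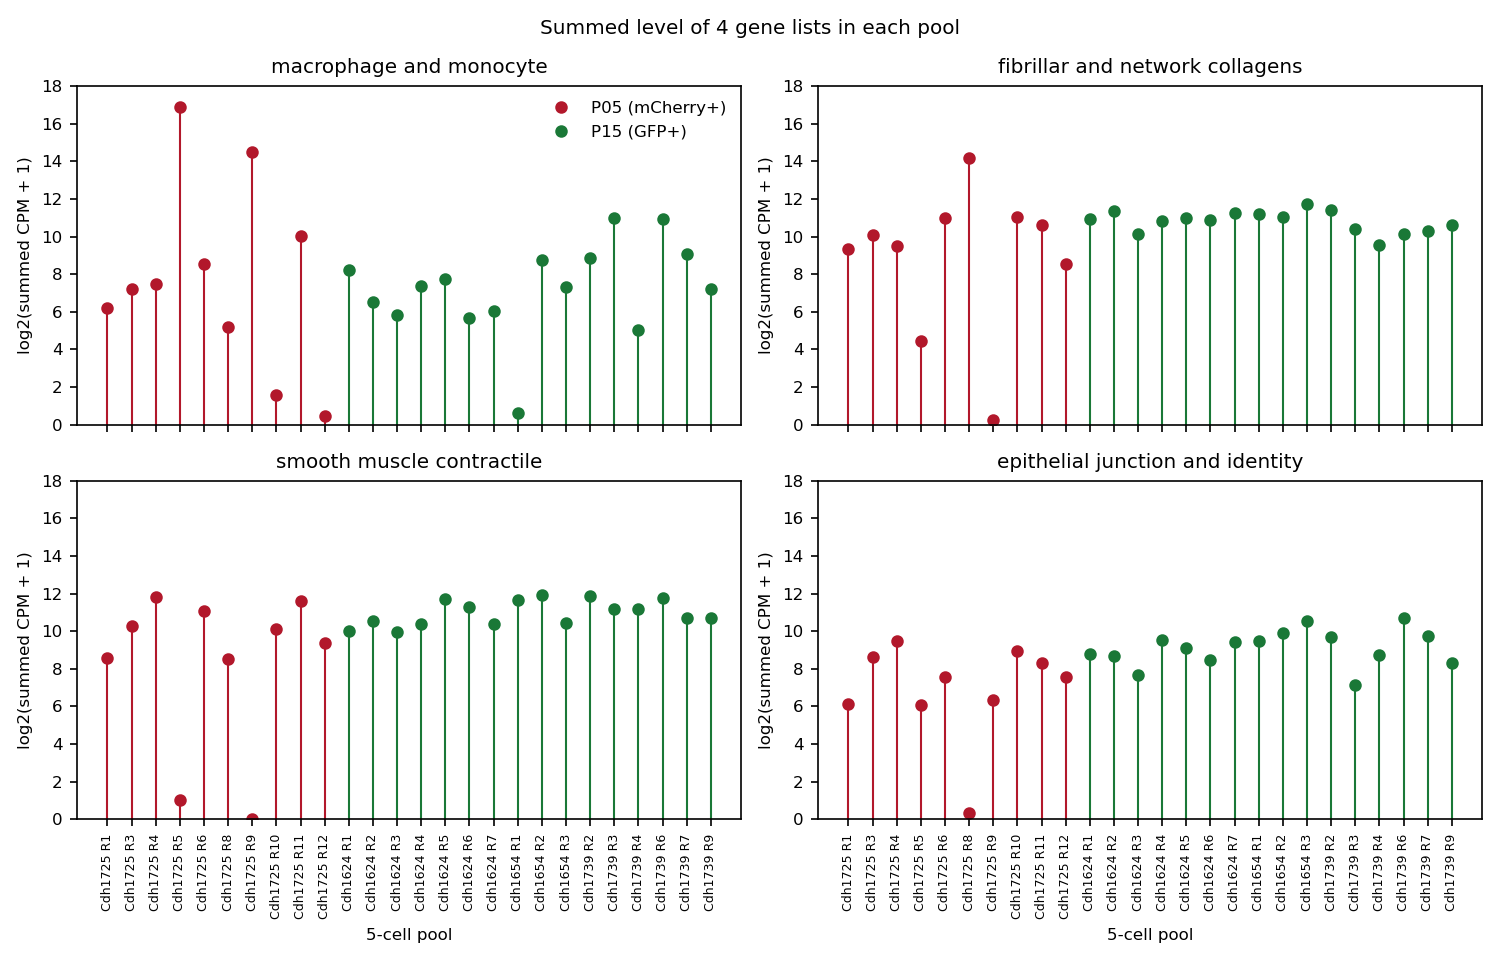
Summed level of 4 gene lists, as log2(summed CPM + 1), in each P05 pool on the left and each P15 pool on the right. The macrophage and monocyte sum is highest in R5 (120500 CPM) and R9 (23470 CPM), and the collagen sum is highest in R8 (18530 CPM).

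Serpinf1, Mfge8 and most contractile genes were present in most pools of both gates and absent or low in R5 and R9. Serpinf1, which encodes the antiangiogenic protein PEDF, held no count in R5 and R9, 357 to 1461 CPM in the other 8 P05 pools, and 297 to 1707 CPM in the P15 pools. It had no count in any P18 pool of animal Cdh1725. Mfge8, the gene of a milk fat globule protein that bridges apoptotic cells to phagocytes, held no count in R5, 6.55 CPM in R9 and 207 to 3814 CPM in the other P05 pools, against 1827 to 12360 CPM in P15. Its median was 1338 CPM in P05 and 5173 CPM in P15, and 428 CPM in the P18 pools.

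Sparc, a matricellular glycoprotein gene, held 0, 291 and 6647 CPM in the P05 pools, with its highest value in R8 and no count in R5 and R9, against 64.3, 534 and 784 CPM in the P15 pools. The log2 fold change was 2.55 (SE 1.18, edgeR adjusted p = 0.829), and 0.815 without R8. Acta2, the gene of smooth muscle actin, held 0, 133 and 1902 CPM in P05, against 0, 465.5 and 1424 CPM in P15. It reached 10 CPM in 6 of 10 P05 pools and 13 of 16 P15 pools, and in 0 of 16 P18 pools. Besides R5 and R9, the P05 pools under that level were R1 at 1.51 CPM and R12 at 0.

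The 14 smooth muscle contractile genes summed to 1.05 CPM in R5, to 0 in R9, and to 361 to 3605 CPM in the other P05 pools, against 980 to 3871 CPM in P15. None of the 13 tested passed the 4-fold rule in either direction, and their median log2 fold change was -0.18. Sox9, a progenitor transcription factor, held 0, 8.12 and 199.6 CPM in P05 against 63.4, 176.5 and 1966 CPM in P15, where the 6 pools of Cdh1739 were highest at 809 to 1966 CPM. The P15 animals thus also differed among themselves.

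The genes that differed most in the share of pools at 10 CPM or more were picked by that share, 12 in each direction. The shares are therefore a description. Over all genes tested, the median pool held 3780 genes at that level in P05 and 6575 in P15. Present in more P05 pools was Pon3, which encodes a paraoxonase and held 17.2 to 163 CPM in 5 P05 pools (R3, R5, R6, R9 and R11) and no count in P15. On totals without TMM scaling, Pon3 was at least 1068-fold higher in P05 over all pools (762-fold without R5). It was also present in 16 of 16 P18 pools of animal Cdh1725 at 14.5 to 163 CPM. Ctsh, a lysosomal protease gene, reached 10 CPM in 7 of 10 P05 pools, 5 of 16 P15 pools and 16 of 16 P18 pools, with a log2 fold change of P05 over P15 of 4.50 (SE 1.64, edgeR adjusted p = 0.653), 3.55 without R5 and 5.54 without Cdh1624. Mmp11, the gene of the metalloproteinase stromelysin 3, reached it in 7 of 10 P05 pools, 4 of 16 P15 pools and 16 of 16 P18 pools. With the 3 ribosomal-locus genes left out, Mmp11 reached it in 7 of 10 P05 pools and 8 of 16 P15 pools.

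Lsp1, an actin-binding protein gene of leukocytes, was present in R5, R8, R9 and R10 at 30.1 to 359 CPM and had no count in P15. Snx27, an endosomal sorting gene, reached 10 CPM in 6 of 10 P05 pools and 3 of 16 P15 pools, or 5 of 16 without the ribosomal-locus genes. The others in this direction were mt-Co3, Tmem140, Abi3bp, Bmyc, Dnajc25, Chmp4b and Grtp1. Of these, Grtp1 was present in all 10 P05 pools and in 10 of 16 P15 pools, 7 of which came from Cdh1624.

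In the other direction, Kctd10, an adaptor of the cullin-3 ubiquitin ligase, held at most 1.08 CPM in the P05 pools, against a median of 71.5 and a highest value of 529 CPM in P15. It reached 10 CPM in 0 of 10 P05 pools and 14 of 16 P15 pools, and in 15 of 16 P18 pools of the P05 animal. Its log2 fold change was -8.40 (SE 3.16, edgeR adjusted p = 0.654), and -11.88 without R3. Tmem87a, a Golgi membrane protein gene, held at most 3.5 CPM in P05 and a median of 37.2 CPM in P15, with 0 of 10 P05 pools, 13 of 16 P15 pools and 15 of 16 P18 pools at 10 CPM (log2 fold change -5.70, SE 1.91, edgeR adjusted p = 0.653). R3 was the only P05 pool with a Tmem87a count, and the fold without it (-14.53) depends on the prior count.

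Gcn1l1, the partner of the eIF2-alpha kinase GCN2, held at most 4.25 CPM in P05 and a median of 88.6 CPM in P15, where 15 of 16 pools reached 10 CPM (log2 fold change -5.94, SE 2.42, edgeR adjusted p = 0.730, and -7.60 without R3). Only 5 of 16 P18 pools reached 10 CPM of Gcn1l1. Bcl6 and Arid5b, both transcriptional regulators, each reached 10 CPM in 1 of 10 P05 pools, 15 of 16 P15 pools and 16 of 16 P18 pools. Sh3bp4, an endocytic adaptor gene, and Shroom3, a regulator of apical actomyosin, each reached it in 0 of 10 P05 pools and 13 of 16 P15 pools. The others in this direction were Cpsf1, Grb14, Mapk1ip1l, Myo1h and Gm26558, at 0 or 1 of 10 P05 pools and 14 or 15 of 16 P15 pools. With the ribosomal-locus genes left out, the P05 pools at 10 CPM numbered 4 for Bcl6, Grb14 and Mapk1ip1l, 3 for Cpsf1 and Gm26558, 2 for Arid5b and 1 for Gcn1l1, Tmem87a and Shroom3. They numbered 0 for Kctd10, Myo1h and Sh3bp4, and each of the 12 genes still reached 10 CPM in 13 to 16 of 16 P15 pools.

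Several of these genes overlap a neighbour, among them Kctd10 with Myo1h, Tmem87a with Ganc, Grtp1 with Lamp1, Cpsf1 with Adck5, Mmp11 with Chchd10 and mt-Co3 with mt-Atp6. Whether counting used strand is not given in the sources used here, so reads of such pairs cannot be told apart.

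Across all genes, no gene passed the test. Counts were summed per animal and gate, the lone P05 sum was assumed to vary like the sums of the other gates, and 25029 genes were tested with edgeR's quasi-likelihood test. At an adjusted p under 0.05, 0 genes were higher in P05 (0.0%) and 0 were lower (0.0%), and the lowest adjusted p was 0.279. At an unadjusted p under 0.05, 1197 genes were higher in P05 (4.78%) and 347 were lower (1.39%). DESeq2's Wald test on the same sums called 186 genes higher and 691 lower. For a single gene, an exact permutation test of 1 animal against 3 cannot go below p = 0.25. By size alone, 759 genes (3.03%) stood at least 4-fold above the highest of the 3 P15 animals and 377 (1.51%) at least 4-fold below the lowest, after 1 CPM was added to each TMM-scaled sum. Leaving out a P15 animal gave 1334, 893 and 945 genes above and 574, 582 and 803 below, for Cdh1624, Cdh1654 and Cdh1739 in that order. Without R5, R8, R9 and R10 the counts were 496 and 805, of which 242 and 322 were among the genes first counted.

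**Figure D4:**
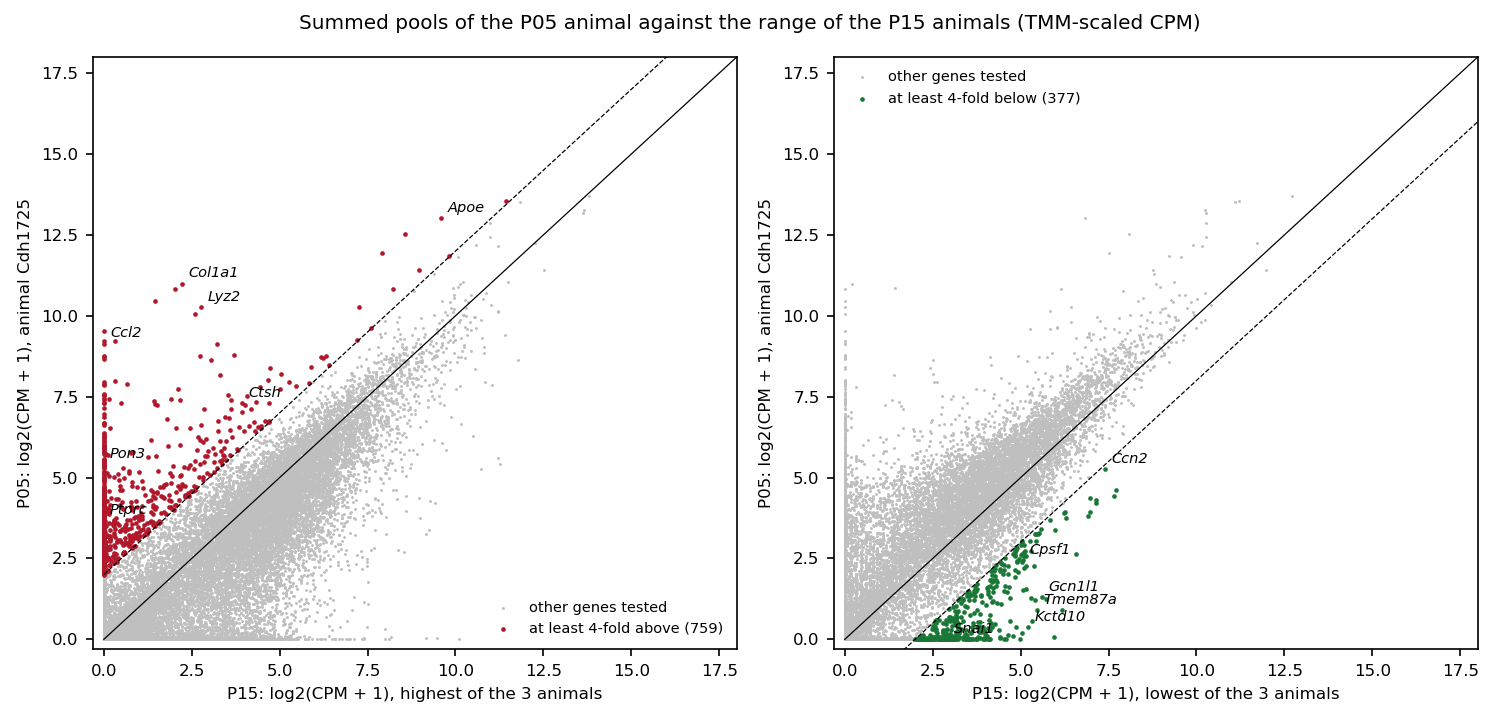
Each point is a gene tested, with log2(CPM + 1) of the TMM-scaled P05 sum on the y axis against the highest (left panel) or lowest (right panel) of the 3 P15 animals on the x axis, and genes past the 4-fold rule coloured. Above the range lie 759 genes, with leukocyte and collagen genes among the highest, and below it lie 377.

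Read against those backgrounds, the lists with the most members above the P15 range were those held by R5 and R9 or by R8 and R10. Of 12 pan-leukocyte genes, 8 stood above, with a median log2 fold change of 7.89 when genes without P15 counts are set at their bound (10.06 as fitted). The bounds are not TMM-scaled, while the fitted values are. Without R5 and R9, 0 of 9 stood above. Both pools were picked by their Ptprc counts, and Ptprc is a member of this list. The count without them therefore says only which pools hold these transcripts. The median of the macrophage list on that footing was 9.85 (12.30 as fitted). Of 15 chemokine and myeloid growth factor genes, 9 stood above, with Ccl2, Ccl7 and Cxcl1 from R8 and Il1b from R5. Of 9 MHC class II genes, 3 stood above (H2-Aa, H2-Ab1 and Cd74).

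Of 30 elastic fibre and proteoglycan genes, 11 stood above and 1 below (Emilin1, an elastic fibre glycoprotein gene). Without R8 and R10, 1 of 27 stood above and 4 below, and the median log2 fold change was -2.22 in place of 1.84. The list's median pool sum was 1397 CPM in P05 and 3328 CPM in P15, which is the opposite direction to the median of the fold changes with all pools. Of 22 mesenchymal cytoskeleton and signalling genes 7 stood above, and 1 of 21 without R8 and R10 (Tgfbi).

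Of 32 epithelial junction and identity genes only the tight junction gene Ocln stood above and none below, with a median log2 fold change of -2.51, or -0.87 when genes without counts are set at their bound. Ocln had 65.9 CPM in R5, at most 0.401 CPM in the other P05 pools and no count in P15. Of 17 TGF-beta ligands, receptors and targets, 2 stood below, Smad2, a signal transducer, and Ccn2, a secreted target gene. Ccn2 held 0, 0 and 275 CPM in the P05 pools, against 0, 76.1 and 10210 CPM in the P15 pools, with 1 of 10 and 12 of 16 pools at 10 CPM. No gene of the cell cycle, interferon-stimulated, heat shock, immediate early or milk protein lists passed the 4-fold rule in either direction. The median over all genes tested was -0.05.

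Mitochondrially encoded genes were all fitted higher in P05. All 13 had a positive log2 fold change, with a median of 2.16, and 7 had an unadjusted p under 0.05, but none passed the 4-fold rule or the adjusted test. mt-Cytb, a subunit of respiratory complex III, held 2049, 6923 and 12330 CPM in the P05 pools, against 1225, 2966 and 5109 CPM in the P15 pools, and the ranges overlapped (log2 fold change 2.08, SE 0.86, edgeR adjusted p = 0.741). With the ribosomal-locus genes left out they held 7512 to 47140 CPM in P05 and 2758 to 6497 CPM in P15, without overlap. The P05 pools R8, R3 and R10 were lowest at 2049 to 3109 CPM. The mitochondrial and ribosomal-locus shares of the libraries differed in the same direction, and the part of RNA quality in these values was not tested.

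The P05 pools had lower correlations with each other than the P15 pools did. Over 25026 genes, Pearson's r of log2(CPM + 1) had a median of 0.523 between P05 pools (0.376 to 0.665, 45 pairs), 0.626 between P15 pools (0.476 to 0.821, 120 pairs) and 0.541 between a P05 and a P15 pool. These values are across genes, which are not independent replicates, and the pools also differ in depth and in the number of genes detected. By median r with the P15 pools, R3 (0.672) and R10 (0.648) were the P05 pools most like P15, and R5 (0.416) and R9 (0.442) the least. The same pools were the most and least like the P18 pools of Cdh1725 (R3 0.658, R10 0.646, R5 0.461, R9 0.485). Over all P05 pools the median r with P18 was 0.546. R3 and R10 also had counts on the most genes (11785 and 12123), and R5 and R9 on the fewest (5808 and 6742). The P18 pools of the P05 animal had a median r of 0.814 among themselves.

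The same 2 gates in the Tnc-CreERT2 line, with 5 animals in P05 and 3 in P15, give a range in which the values of animal Cdh1725 can be placed. Of the Tnc P15 animals, TENA2524 gave 1 pool of 508631 counts, so its P15 values rest on a single library. The macrophage and monocyte sum was 6961 CPM in the Cdh2 P05 animal and 157 to 764 CPM in the Cdh2 P15 animals, against 71.1 to 29650 CPM in Tnc P05 and 2961 to 34580 CPM in Tnc P15. The collagen sum was 3950 CPM in Cdh2 P05 and 1428 to 2282 CPM in Cdh2 P15, against 288 to 15290 CPM in Tnc P05. In Tnc P15 it was 9803 CPM in TENA2524, and 762 and 2.37 CPM in the other animals. For both lists the Cdh2 P05 animal lay within the Tnc P05 range, and so did all 3 Cdh2 P15 animals. The placement therefore does not separate the 2 gates.

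The 3 Cdh2 P15 animals stood apart from the Tnc P15 animals in leukocyte genes: Ptprc was not counted in them and was 11.8 to 253 CPM in the Tnc P15 animals. Mfge8 was 1475 CPM in Cdh2 P05 and 3844 to 6410 CPM in Cdh2 P15, against 24.9 to 3453 CPM in Tnc P05 and 32.0 to 212 CPM in Tnc P15. The contractile sum was 1285 CPM in Cdh2 P05 and 2241 to 3465 CPM in Cdh2 P15, against 277 to 2544 CPM in Tnc P05. In Tnc P15 it was 3185 CPM in the single pool of TENA2524, and 270 and 189 CPM in the other animals. Cdh2 itself was 1.44 CPM in Cdh2 P05 and 13.7 to 51.5 CPM in Cdh2 P15, and at most 6.97 CPM in the Tnc animals of either gate. Whether these differences between lines exceed those between animals was not tested.

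**Figure D5:**
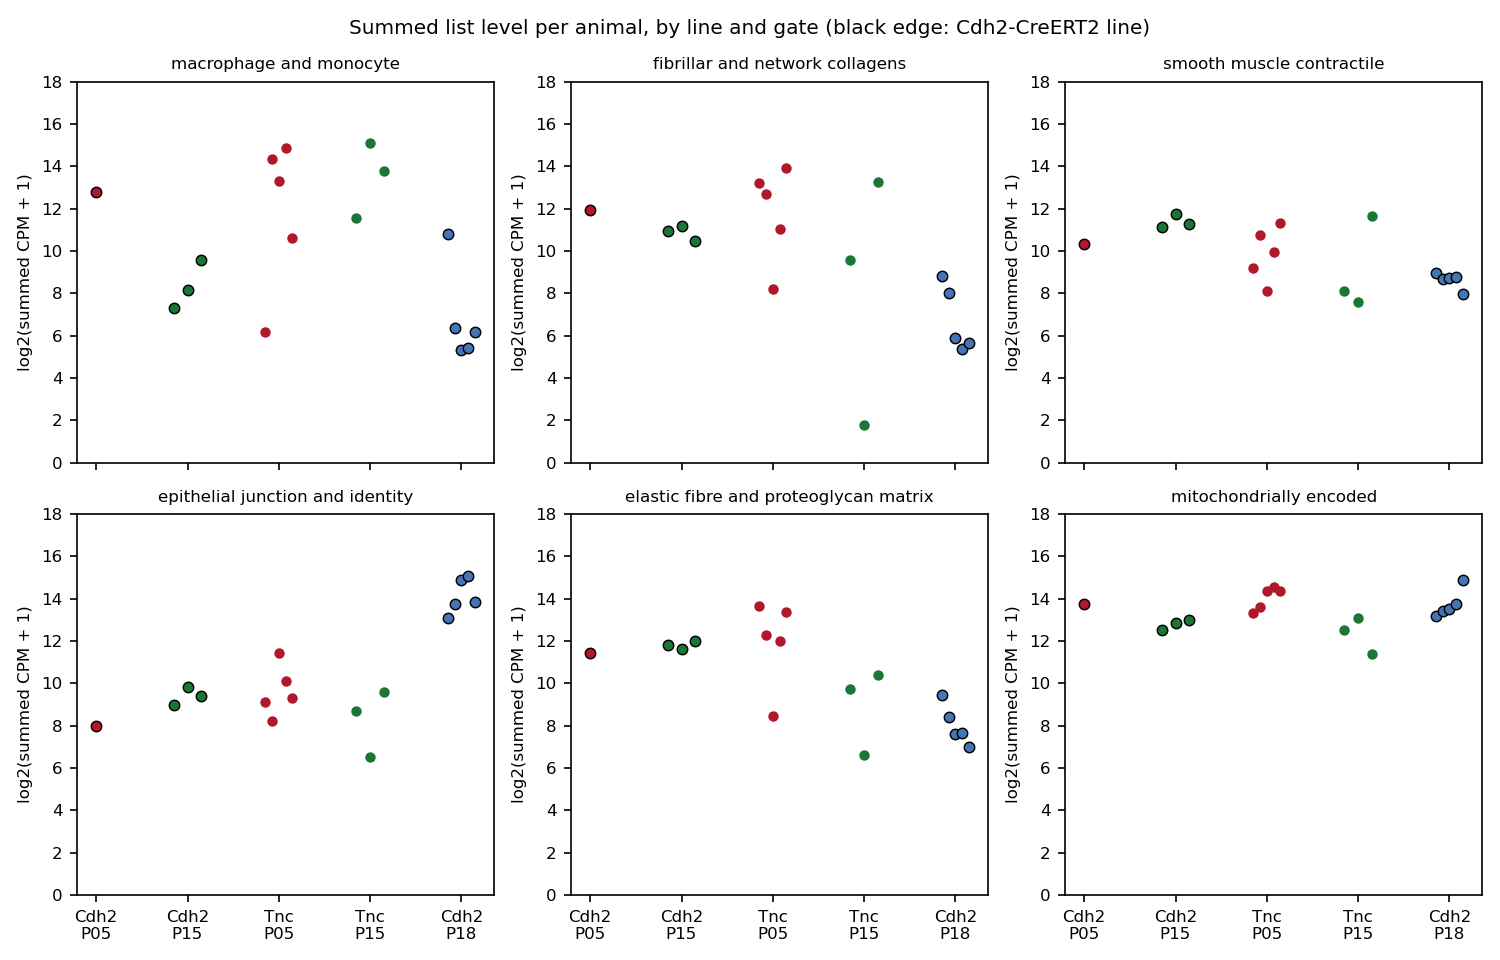
Summed level of gene lists per animal, as log2(summed CPM + 1), by line and gate, each point an animal, with the EpCAM-high P18 animals of the Cdh2 line at the right. The Cdh2 P05 animal lies within the range of the 5 Tnc P05 animals for the macrophage sum (6961 against 71.1 to 29650 CPM) and the collagen sum (3950 against 288 to 15290 CPM).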

How the data were processed

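The deposited table holds raw read counts per gene and library; per the submitters' processing notes the authors used STAR, SAMtools and featureCounts (Subread) with the mouse build mm10, and whether counting used strand is not given in the sources used here. Libraries were assigned to animal, gate and quality control by their labels. All 55450 gene identifiers matched the annotation, and 108 symbols are shared by several identifiers, among them Aldoa, which was left out of its list. CPM per pool was each count per 1000000 counts of the library, with 10 CPM as the level for presence. For tests, counts were summed over the passing pools of each animal and gate (9 sums: 1 of P05, 3 of P15 and 5 of P18), filtered with filterByExpr, scaled by TMM and tested with edgeR 4.0.16 in R 4.3.3 (limma 3.58.1), with Benjamini-Hochberg adjustment. Each SE of a log2 fold change from edgeR is its absolute value divided by the square root of the test's F statistic. It is thus no separate estimate, and is least reliable for genes with few or no counts in a gate. DESeq2 1.42.0 was an alternative.

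The P05 sum has no replicate, so its spread was taken from the other gates. Fitted fold changes use TMM-scaled sums, while pool CPM and the bounds of genes without counts in a gate are unscaled. The TMM factor was 0.537 for the P05 sum and 0.951 to 1.37 for the P15 sums. On the scaled footing the Snai1 bound would be smaller and the Ptprc and Pon3 bounds larger. List medians with genes set at their bound mix both scales. The size rule asked for a 4-fold distance from the highest or lowest P15 animal after adding 1 CPM. A floor is 3 counts, and intervals and floors cover counting error only, since reads carry no molecular identifiers. Named genes were the driver, gate and marker genes, the 12 genes per direction with the largest difference in share of pools, and the 2 most abundant genes of each of 35 lists. The members and lists were chosen with earlier results of these data known. At most 2.02% of detected genes had equal counts in any 2 pools, so none was taken for a copy of another. The fit was also run on simulated data, and the outcome of that run is not given here.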

Additional observations from a re-analysis of the deposited data

Results flagged for a closer look

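In 77 groups of 6 to 10 pools examined, 20 values stood apart from the rest of their group by Dixon's criterion at the 95% level. Chance passes that level in about 1 in 20 groups only where values follow a normal distribution. In several of these groups only 1 pool had counts of the gene, and such a value is always marked. The number marked is therefore no measure of an excess, and the values are listed as a description. Among the P05 pools these were Tnc in R6 (9.66 CPM), Epcam in R10 (35.6 CPM), Cdh1 in R6 (46.4 CPM), Snai2 in R8 (24.4 CPM), Twist1 in R8 (2.1 CPM), Pecam1 in R11 (6.53 CPM) and Krt8 in R4 (3.35 CPM), each the highest value of its gene. On the low side, the summed epithelial junction and identity genes of R8 were at 0.28 CPM.

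Among the P15 pools of Cdh1624, the values that stood apart were Fn1 in R3 (570 CPM), Zeb2 in R5 (9.55 CPM), Col1a1 in R5 (9.16 CPM), the summed pan-leukocyte genes in R7 (12.9 CPM) and the total of R5 (2.78e+07 counts). Among those of Cdh1739 they were Epcam in R9 (0 CPM), Cdh1 in R2 (9.91 CPM), Zeb2 in R7 (0.4 CPM), Snai1 in R4 (153 CPM), Col1a1 in R7 (0.734 CPM), Acta2 in R3 (0.357 CPM) and the summed endothelial genes in R4 (0.124 CPM).

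For 3 gene lists the P05 and P15 sums, in CPM without TMM scaling, differed in opposite directions in the 2 lines in every animal compared. The median log2 difference of P05 minus P15 in the Cdh2 line was -0.422 for Schwann and nerve genes, -0.338 for elastic fibre and proteoglycan genes and -1.65 for milk protein genes. In the 3 Tnc animals with both gates the same difference lay between 3.55 and 7.47, between 1.63 and 2.57 and between 2.43 and 3.09. With the sums scaled by TMM over both lines, a step added after the data were seen, the opposite directions were lost for Schwann and nerve genes (0.391 to 0.941 in the Cdh2 line) and for elastic fibre and proteoglycan genes (0.348 to 1.19), against 3.31 to 8.28 and 1.59 to 3.17 in the Tnc line. The milk protein genes kept opposite signs, at -0.961 to -0.0117 in the Cdh2 line and 2.83 to 3.67 in the Tnc line, but a value of -0.0117 is hardly a difference. Mfge8 is a member of this list. It held 1827 CPM in P15 pool R3 of Cdh1739, and the lowest P15 list sum was also 1827 CPM. The part of Mfge8 alone in these differences was not tested. The Cdh2 values set 1 P05 animal against 3 others, the Tnc animal TENA2524 had 1 P15 pool, and the difference between the lines was not tested.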

How the results depend on the processing

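The count of called genes was 0 in each direction under every edgeR setting except the use of all libraries with cells, failed ones included, where 85 were called higher and 0 lower, and where 0 genes stood 4-fold below the P15 range. DESeq2's Wald test called 186 higher and 691 lower, with 6631 adjusted p-values missing. The 759 and 377 genes past the 4-fold rule became 643 to 1334 above and 393 to 803 below when single P05 pools or P15 animals were left out, with 1334 and 574 without Cdh1624, 582 below without Cdh1654 and 803 below without Cdh1739. They were 154 and 19 with 10 CPM added. Among alternatives chosen after seeing the data, 701 genes stood below without the pools that hold Col1a1 (R8 and R10), and 496 above and 805 below without R5, R8, R9 and R10. Lyz2 reversed to a log2 fold change of -10.18 without R5 and R9 and -10.17 without all 4 pools. Col1a1 reversed to -9.67 without R8 and R10 and -9.65 without all 4, Col3a1 to -9.16 and -9.14, and Fn1 to -13.27 without all 4. In these fits the P05 pools had no count of the gene, so the size depends on the prior count. DESeq2 called Col1a1 (10.14), Kctd10 (-8.55), Gcn1l1 (-6.07) and Tmem87a (-5.88). The cause of these changes beyond the pools left out was not tested. Of 13 fold changes given for genes, 327 values under alternatives kept direction and side of the threshold, 7 reversed and 4 newly passed it. With no gene called in the main fit, the side could hardly change, and size was not judged. Among the values kept were Epcam at -0.10 without Cdh1739 and Apoe at 0.18 without R5 and R9. The number kept is therefore no measure of stable size. Of 34 list medians, 315 values moved by more than the spread of the P15 animals and 569 did not, and 16 lists changed sign without R5, R8, R9 and R10. Over all genes tested, the fold changes centred on a log2 of -0.22 with RLE scaling, -0.05 with TMM and -0.62 with animal as a block.

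No paired analysis was possible because the replicate numbers only number the pools of an animal, and no animal gave passing pools in both P05 and P15. A fit with animal as a block, which links the gates only through the P18 sums of the same animals, called 0 genes, with 267 higher and 78 lower at an unadjusted p under 0.05. In it the log2 fold change was -5.29 for Cdh2, 0.70 for Sparc, 1.04 for mt-Cytb, 7.79 for Apoe, 10.12 for Fn1, 18.25 for Col1a1, -10.73 for Kctd10 and -4.14 for Gcn1l1. Without Cdh1624, and with no block, it was 12.04 for Col1a1, 14.47 for Col3a1 and 17.44 for Fn1. The P15 pools then left held no Fn1 count, so that size depends on the prior count. They held Col3a1 only in pool R3 of Cdh1654, at 4.41 CPM. The design limits every statement: 1 animal stands for P05, its pools hold 5 cells each, and a gene expressed in few cells can be missed in a pool. The shallowest P15 pool, at 453079 counts, changed the counts above and below to 771 and 360 when left out.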

Other observations

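For 3 abundant genes, chosen after their values were seen, the median CPM was lower in the P05 pools, and none passed the test. Ldha, which encodes a lactate dehydrogenase subunit, held 26.1, 238 and 620 CPM in the P05 pools (lowest, median and highest), against 298, 633 and 1202 CPM in the P15 pools. Hspa5, the gene of an endoplasmic reticulum chaperone, held 118, 313 and 1138 CPM in P05, against 490, 1162 and 2649 CPM in P15. Itgb1, the beta-1 integrin gene, held 43.3, 125 and 514 CPM in P05, against 210.5, 528.5 and 1368 CPM in P15. For these 3 genes the ranges overlapped. With the 3 ribosomal-locus genes left out of the totals the medians were 712.5 CPM in P05 and 986 CPM in P15 for Ldha, 735 and 1787 CPM for Hspa5, and 353.5 and 833 CPM for Itgb1, and the ranges still overlapped. On TMM-scaled sums the log2 fold changes of the 12 heat shock genes had their median at 0.21, and 8 of 12 were positive.

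Ccn1, a secreted matricellular gene, held 0, 76.4 and 1289 CPM in the P05 pools, against 16.5, 1797 and 6935 CPM in the P15 pools, and its highest P05 value was in R10. Cd14, the gene of a lipopolysaccharide co-receptor, held 22640 CPM in R5 and 378 CPM in R9 of P05. It also reached 77.8 to 2289 CPM in 5 of 6 P15 pools of Cdh1739, pools without a Ptprc count. Cxcl10, an interferon-induced chemokine gene, held 592.5 CPM in P05 pool R10 only, and reached 10 CPM in 4 of 16 P15 pools, 3 of them from Cdh1739, at up to 1196 CPM.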
